A study of Mus musculus with 16 samples.

Results

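Glycogen is the branched glucose polymer that heart muscle keeps as a fuel store. Glycogenin primes each particle, glycogen synthase lengthens its chains and the branching enzyme adds branch points, while glycogen phosphorylase frees glucose units from the chain ends. Phosphorylase kinase switches phosphorylase on, and protein phosphatase 1, brought to the particle by glycogen-targeting subunits, switches synthase on and phosphorylase off. The 9 genes described here code for these steps and were taken by name from the 55492 genes in the deposited table: Gyg, Gys1 and Gbe1 for synthesis, Pygb, Pygl and Pygm for breakdown, Phkg1 for the catalytic subunit of phosphorylase kinase, and Ppp1r3a and Ppp1r3c for targeting subunits of protein phosphatase 1. All 9 were in the table, and 8 of them reached the mean of 10 normalized counts over the libraries that testing required. Pygm did not.

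RNA was sequenced from the left ventricles of 16 male C57BL/6 mice aged 8 to 12 weeks, 1 library per mouse. Control mice were PKM2fl/fl, with loxP sites in both Pkm alleles and no Cre. PKM2-/- mice lacked PKM2, an isoform of the glycolytic enzyme pyruvate kinase, in every tissue, because the floxed exon had been deleted in the germ line with CMV-Cre and the Cre then bred out. Each genotype had 2 unoperated baseline hearts, 3 hearts taken 3 days after sham surgery and 3 hearts taken 3 days after the left anterior descending (LAD) coronary artery was tied off for good, which causes myocardial infarction (MI); sham mice were operated on without tying the artery. The whole left ventricle was pulverized, so infarcted and surviving muscle were sampled together.

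Each library held 20623769 to 71855101 counted reads, of which loci related to ribosomal RNA took 15.8% to 46.1%, with the highest group mean in PKM2-/- baseline hearts. At baseline this share was 17.25% to 22.13% in PKM2fl/fl and 39.72% to 43.85% in PKM2-/- hearts. After sham surgery it was 15.84% to 27.79% and 28.6% to 46.07%, and after MI 19.83% to 44.69% and 16% to 34.37%. At baseline and after sham surgery it therefore cannot be told apart from genotype. Pkm itself lay between 7779 and 12076 normalized counts in PKM2fl/fl hearts and between 10120 and 16113 in PKM2-/- hearts; gene-level counts sum the PKM1 and PKM2 transcripts and therefore do not check the deletion. The libraries had the markers of heart muscle: 6 cardiomyocyte markers summed to 642097 or more in every unoperated or sham heart, while 7 skeletal muscle markers summed to 137 or less in every library. The sum of 3 atrial markers ran from 120 in a PKM2fl/fl baseline heart to 1487 in a PKM2-/- sham heart. Whether atrial tissue was taken along was not tested. After MI the cardiomyocyte sum was 132128 to 328430 in PKM2fl/fl hearts and 146232 to 209831 in PKM2-/- hearts, and the sum of 8 leukocyte markers went from 4087 to 9383 after sham surgery to 18953 to 34284 after MI over both genotypes. In PKM2fl/fl hearts S100a8 (36.3 to 327, then 134 to 281) and S100a9 (53.9 to 441, then 159 to 470) overlapped between sham and MI. In PKM2-/- hearts both rose, and the other leukocyte markers rose in both genotypes. The sum of 5 fibroblast markers was 20865 to 38524 after sham surgery and 115187 to 154445 after MI. Col1a1, Col3a1, Postn and Pdgfra rose, but Dcn went the other way. Dcn was at 8270 to 12625 after sham surgery and 6364 to 7840 after MI in PKM2fl/fl hearts. In PKM2-/- hearts Dcn was at 8071 to 13364, then 6806 to 7426. The third PKM2fl/fl MI library had the lowest cardiomyocyte sum (132128) and the highest leukocyte sum (34284) of all libraries. Values below are read counts that the authors divided by library size factors (normalized counts), and fold changes are on the log2(value + 1) scale.

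To compare levels between genes, counts were also divided by the length of each gene's canonical transcript. In PKM2fl/fl sham hearts Pygb, the brain isoform of glycogen phosphorylase, had the highest level at 3564 ± 163 normalized counts per kb (SD, n = 3). Phkg1 followed at 2279 ± 129 per kb and Gyg at 1234 ± 38.8 per kb. The place of Phkg1 is uncertain, because its counts nearly equal those of Chchd2, a gene inside its annotated span. Ppp1r3c (1005 ± 296 per kb) and Ppp1r3a (1000 ± 155 per kb) overlapped each other, and Ppp1r3c also overlapped Gyg. Gbe1 at 613 ± 60.1 per kb and Gys1 at 538 ± 46.6 per kb overlapped as well. Pygl, the liver isoform of phosphorylase, was far lower at 54.7 ± 13.6 per kb. Pygm, the muscle isoform, was listed at 4.69 ± 0.541 per kb, but has no place in this order, because the genes around it were also listed near 0. After MI the order was closer: Pygl reached 204 ± 108 per kb in PKM2fl/fl and 242 ± 15.3 per kb in PKM2-/- hearts, where it overlapped Gys1 and Ppp1r3c in both genotypes, and Ppp1r3a in PKM2fl/fl hearts.

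**Figure D1:**
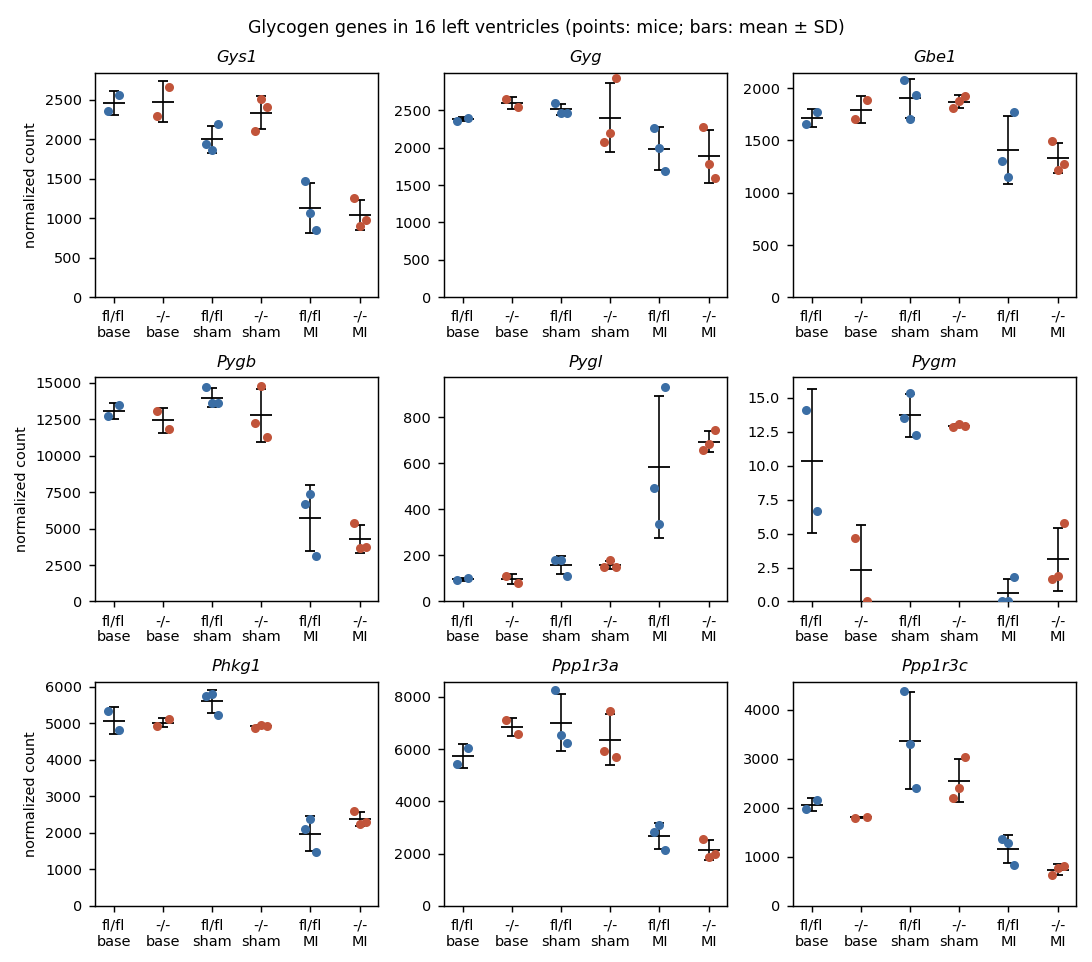
Normalized counts of the 9 glycogen genes in each of 16 left ventricles, by genotype (blue PKM2fl/fl, red PKM2-/-) and treatment; points are mice and bars the mean ± SD of 2 baseline, 3 sham or 3 MI hearts. Among the tested genes, Gys1, Pygb, Phkg1, Ppp1r3a and Ppp1r3c lie lower in every MI heart than in every sham heart of the same genotype. So do 29.0% of all genes in PKM2fl/fl and 30.6% in PKM2-/- hearts. Pygl lies higher, as do 30.0% and 31.7%, and Pygm never exceeds 15.4.

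MI against sham surgery was the main contrast. Of the 8 tested genes, 6 fell and 1 rose in PKM2fl/fl hearts, and 6 fell and 1 rose in PKM2-/- hearts (limma, adjusted p under 0.05). In both genotypes the 6 include Phkg1, whose counts are uncertain as a measure of that gene, as described below. Calls were common among all genes: 50.1% of 20576 tested genes passed in PKM2fl/fl hearts, 25.3% lower and 24.8% higher, and 56.8% passed in PKM2-/- hearts, 28.1% lower and 28.7% higher. The median log2 fold change of the 8 was -1.12 in PKM2fl/fl and -1.11 in PKM2-/- hearts, against -0.0025 and 0.0105 over all genes. With the further demand of a 2-fold change, 5 and 6 of the 8 passed, against 23.5% and 28.8% of all genes. These directions hold relative to the median gene: when libraries were instead scaled to the cardiomyocyte markers, which moved the median of all genes by 1.68 in PKM2fl/fl and 2.12 in PKM2-/- hearts, all 8 genes came out above sham, while relative to that median the 7 genes other than Pygl stood at -1.51 to -0.33 in PKM2fl/fl and -1.78 to -0.34 in PKM2-/- hearts and Pygl at 1.81 and 2.13. Rescaling moves all genes almost alike, so the values relative to the median gene cannot differ much between scalings and are not a separate check. Fewer cardiomyocytes and less of a transcript per cardiomyocyte cannot be told apart in whole-ventricle RNA, and the part of the cell mixture in the changes was not tested.

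**Figure D2:**
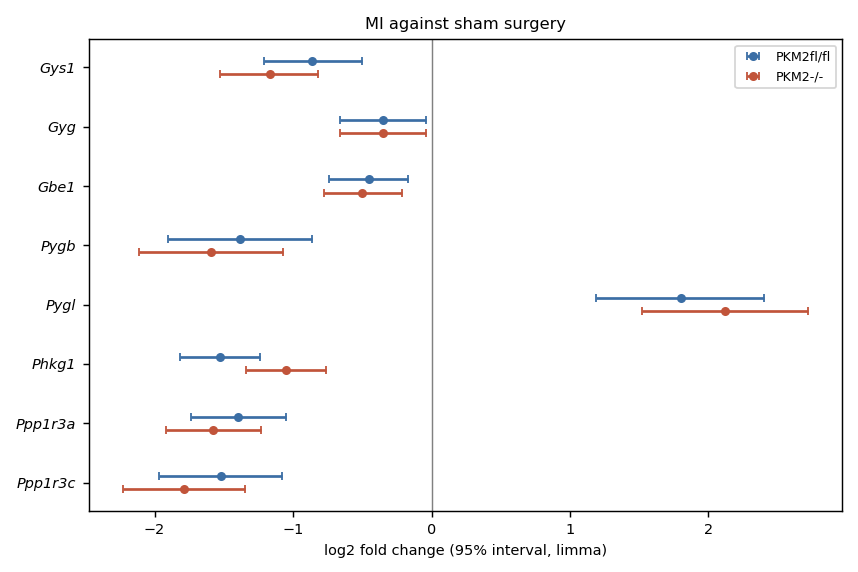
Log2 fold change of 8 glycogen genes after MI against sham surgery in PKM2fl/fl (blue) and PKM2-/- (red) hearts, 3 against 3 in each, with 95% intervals from limma. Pygl is the single gene to the right of 0, and the Gyg intervals end at -0.04 although its adjusted p of 0.0572 and 0.0531 missed the threshold.

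Of the 3 synthesis genes, Gys1 and Gbe1 fell in both genotypes. Gys1 (chr7:45434839-45456617, GRCm38.p6) codes for the muscle isoform of glycogen synthase, the enzyme that lengthens the chains. Its normalized counts were 1935, 1865 and 2193 after sham surgery and 1475, 1067 and 848 after MI in PKM2fl/fl hearts, and 2100, 2502 and 2405 against 1251, 897 and 978 in PKM2-/- hearts. Every MI value lay below every sham value of its genotype, as was so for 29.0% of all genes in PKM2fl/fl and 30.6% in PKM2-/- hearts. The same shares apply to each gene below whose MI hearts all lay under its sham hearts. Gys1 fell by 0.86 on the log2 scale (SE 0.17, limma adjusted p = 0.000611) in PKM2fl/fl and by 1.17 (SE 0.17, adjusted p = 2.83e-05) in PKM2-/- hearts.

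Gbe1 (chr16:70313949-70569720), the branching enzyme, was at 2079, 1707 and 1931 after sham surgery and 1303, 1152 and 1775 after MI in PKM2fl/fl hearts. It was at 1809, 1878 and 1928, then 1496, 1219 and 1278 in PKM2-/- hearts. The PKM2fl/fl groups overlapped through the third MI heart, the PKM2-/- groups did not. Gbe1 fell by 0.45 (SE 0.14, limma adjusted p = 0.0112) and by 0.50 (SE 0.14, adjusted p = 0.00556). The PKM2fl/fl call was lost without the first sham library (adjusted p = 0.0525) or without the second MI library (adjusted p = 0.0609).

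Gyg (chr3:20122083-20155117), glycogenin, the self-glucosylating primer, was at 2602, 2465 and 2466 after sham surgery and 2263, 2000 and 1689 after MI in PKM2fl/fl hearts, which did not overlap. In PKM2-/- hearts it was at 2075, 2195 and 2926, then 2279, 1788 and 1590, which did. The log2 fold change was -0.35 in both genotypes (SE 0.15, limma adjusted p = 0.0572 and 0.0531), so Gyg passed in neither. It passed in PKM2fl/fl hearts when the first PKM2fl/fl MI library, the third PKM2-/- sham library, or the first or the third PKM2-/- MI library was left out (adjusted p 0.0286 to 0.0488). In PKM2-/- hearts it passed without the first or the third PKM2fl/fl MI library, the first PKM2-/- sham library or the first PKM2-/- MI library (0.01 to 0.0466).

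Among the phosphorylases the isoforms moved in opposite directions. Pygb (chr2:150786796-150831748) was at 14740, 13616 and 13643 after sham surgery and 6679, 7394 and 3143 after MI in PKM2fl/fl hearts, and at 12216, 14795 and 11317 against 5405, 3685 and 3745 in PKM2-/- hearts. Every MI heart was below every sham heart of its genotype, with the lowest value in the third PKM2fl/fl MI library. Pygb fell by 1.38 (SE 0.24, limma adjusted p = 0.000256) and by 1.59 (SE 0.24, adjusted p = 5.31e-05).

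Pygl (chr12:70190815-70227683) was at 180, 179 and 112 after sham surgery and 492, 334 and 930 after MI in PKM2fl/fl hearts, and at 151, 179 and 148 against 657, 683 and 743 in PKM2-/- hearts. Every MI heart was above every sham heart of its genotype, as was so for 30.0% of all genes in PKM2fl/fl and 31.7% in PKM2-/- hearts. Pygl rose by 1.80 (SE 0.28, limma adjusted p = 9.38e-05) and by 2.12 (SE 0.28, adjusted p = 1.45e-05). The highest single value, 930, came from the third PKM2fl/fl MI library, the one with the most leukocyte marker counts; without it the PKM2fl/fl change was 1.40.

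Shares were taken of the counted phosphorylase reads per kb. Pygm added almost nothing to that sum, and its counts cannot be read as its level, so the shares in effect compare Pygb with Pygl. Pygb gave 98.1% to 98.8% after sham surgery and 71.1% to 94.2% after MI in PKM2fl/fl hearts. Its share was 98.1% to 98.3%, then 78.5% to 85.7% in PKM2-/- hearts. Pygl gave 1.11% to 1.76% after sham surgery and 5.83% to 28.8% after MI in PKM2fl/fl hearts, and 1.63% to 1.75% against 14.3% to 21.3% in PKM2-/- hearts. Pygb thus gave most of the counted phosphorylase reads per kb in all 16 hearts, with the level of Pygm not known. Over both genotypes the Pygl share was 15.01 percentage points higher after MI (two-sided exact permutation test within genotype, 6 against 6, p = 0.005, the smallest that 400 arrangements can give; adjusted over 3 shares, p = 0.0075). The Pygb share changed by -14.93 points (exact permutation p = 0.005, adjusted p = 0.0075). With almost no Pygm in the sum, this mirrors the Pygl share and is not a separate result. The Pygm share changed by -0.0812 points (exact permutation p = 0.02, adjusted p = 0.02), from counts that cannot be read as its transcript level. Within 1 genotype the exact permutation test of 3 against 3 cannot go below p = 0.1.

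Phkg1 (chr5:129863431-129879134), the muscle catalytic subunit of phosphorylase kinase, was at 5747, 5809 and 5233 after sham surgery and 2087, 2381 and 1457 after MI in PKM2fl/fl hearts. In PKM2-/- hearts it was at 4865, 4944 and 4925, then 2590, 2242 and 2298. Neither genotype's groups overlapped, and Phkg1 fell by 1.53 (SE 0.14, limma adjusted p = 7.59e-07) and by 1.05 (SE 0.14, adjusted p = 1.24e-05).

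The Phkg1 counts are uncertain as a measure of that gene. Chchd2, a gene for a small mitochondrial protein on the same strand inside the annotated span of Phkg1 in GENCODE M39, gave nearly the same count in every library: the ratio of Phkg1 to Chchd2 was 1.04 to 1.10 in all 16. Phkg1 exceeded Chchd2 by 221 to 367 normalized counts in PKM2fl/fl sham hearts and by 117 to 167 in PKM2fl/fl MI hearts. The excess was 232 to 438 after sham surgery and 95.3 to 109 after MI in PKM2-/- hearts. The exons of the 2 genes share 0 bases in that annotation, whereas Phkg1 shares 3035 exon bases with Sumf2 on the opposite strand. Whether reads were counted for both genes was not tested.

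**Figure D3:**
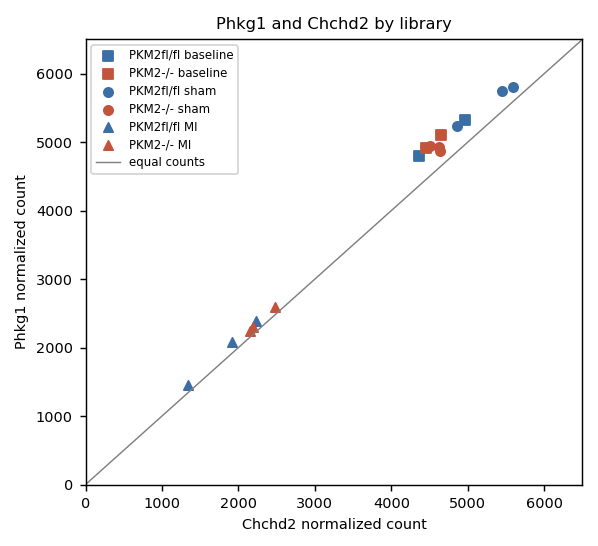
Normalized count of Phkg1 (vertical axis) against that of Chchd2 (horizontal axis) in 16 libraries, coloured by genotype and with a marker for each treatment; the line marks equal counts. All points lie just above the line, with ratios of 1.04 to 1.10.

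The targeting subunits Ppp1r3a and Ppp1r3c fell in both genotypes. Ppp1r3a (chr6:14713822-14755274), the striated-muscle subunit, was at 8263, 6556 and 6242 after sham surgery and 2806, 3097 and 2130 after MI in PKM2fl/fl hearts, and at 5942, 7469 and 5695 against 2571, 1854 and 1987 in PKM2-/- hearts. All MI hearts were below all sham hearts. Ppp1r3a fell by 1.40 (SE 0.16, limma adjusted p = 7.09e-06) and by 1.58 (SE 0.16, adjusted p = 1.51e-06).

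Ppp1r3c (chr19:36731731-36736604), also called protein targeting to glycogen, was at 4390, 3305 and 2407 after sham surgery and 1356, 1285 and 840 after MI in PKM2fl/fl hearts. The PKM2-/- values were 2211, 2412 and 3048, then 619, 775 and 819. All MI hearts were again below all sham hearts, and in PKM2-/- hearts this was the deepest fall of the 8 genes. Ppp1r3c fell by 1.52 (SE 0.21, limma adjusted p = 2.72e-05) and by 1.79 (SE 0.21, adjusted p = 4.36e-06).

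The promoters of the gene that rose and of the gene that fell deepest in PKM2-/- hearts are shown as RefSeq gives them in GRCm38.p6, each as the 250 bases before the gene start on the minus strand, 5′ to 3′. Capitals mark ACGTG, the core of the hypoxia response element, or its reverse complement.
Ppp1r3c, chr19:36736605-36736854: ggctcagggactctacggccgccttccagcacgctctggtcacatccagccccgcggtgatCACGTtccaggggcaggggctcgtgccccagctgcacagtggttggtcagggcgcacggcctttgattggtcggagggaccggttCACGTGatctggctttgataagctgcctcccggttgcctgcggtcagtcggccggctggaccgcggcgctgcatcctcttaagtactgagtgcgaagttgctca
Pygl, chr12:70227684-70227933: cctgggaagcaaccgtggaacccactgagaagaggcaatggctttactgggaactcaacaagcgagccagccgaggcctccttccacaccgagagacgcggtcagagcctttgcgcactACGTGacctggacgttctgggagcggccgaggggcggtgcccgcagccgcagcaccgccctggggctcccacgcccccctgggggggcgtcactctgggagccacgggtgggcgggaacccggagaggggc

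Searched on both strands, ACGTG was in the 250 bases before 4 of the 9 genes (Pygm, Pygb, Pygl and Ppp1r3c) and before 16.6% of the 32851 mouse promoters in the same table. The 4 hold genes that fell and the gene that rose. CACGTG, the E-box bound by MYC and USF proteins, which contains ACGTG on both strands, was before Ppp1r3c alone of the 9 and before 6.02% of all promoters. AAGGTCA, a nuclear receptor half-site, was before 0 of the 9 and 4.08% of all. TATAAA, the TATA box, was before Ppp1r3a alone and 12.4% of all. These are matches of letters and no factor's binding was measured.

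Of 23 further genes of glycogen handling, 20 were tested. After MI, 11 fell and 3 rose in PKM2fl/fl hearts, and 11 fell and 4 rose in PKM2-/- hearts. Of all tested genes, 25.3% fell and 24.8% rose in PKM2fl/fl hearts, and 28.1% fell and 28.7% rose in PKM2-/- hearts. The median log2 fold change of the 20 was -0.36 and -0.57. Epm2a and Nhlrc1, which code for laforin and malin, either of which is lost in Lafora disease, fell in both genotypes (-1.40 and -1.32 for Epm2a, -1.51 and -1.63 for Nhlrc1, PKM2fl/fl first). Also lower in both were Ugp2, which makes UDP-glucose (-0.99 and -0.94), Gaa, the lysosomal acid glucosidase (-0.78 and -1.16), Phka1 and Phkb, regulatory subunits of phosphorylase kinase (-0.96 and -1.41, and -0.32 and -0.58), the phosphatase subunits Ppp1cb (-0.60 and -0.56) and Ppp1r3b (-0.47 and -0.73), and Gsk3a, a kinase that inhibits synthase (-0.38 and -0.31). Ppp1r3d passed in PKM2fl/fl hearts (-0.82) and had -0.37 in PKM2-/- hearts, where Ppp1r3f passed (-0.64).

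The genes that rose in both genotypes were Pgm2, a phosphoglucomutase family member (1.19 and 1.18), Phka2, the liver regulatory subunit of phosphorylase kinase (0.30 and 0.27), and Ppp1cc, a catalytic subunit of protein phosphatase 1 (0.31 and 0.33). Ppp1r3e rose in PKM2-/- hearts (0.81). Phkg2, the liver catalytic subunit of phosphorylase kinase, had -0.05 and 0.09 and passed in neither.

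The contrast of PKM2-/- with PKM2fl/fl hearts addressed whether loss of PKM2 alters the glycogen genes. None of the 8 tested genes passed at baseline, after sham surgery or after MI with limma, where 0.00972%, 0.00972% and 0.967% of all genes passed. At an unadjusted p under 0.05 the counts were 0, 0 and 2 of the 8, against 3.64%, 9.95% and 17.0% of all genes. The filtered fit of edgeR passed 0 of the 8 in each of the 3 contrasts, where it called 1, 2 and 138 of 23161 genes. Log2 differences, PKM2-/- minus PKM2fl/fl, ran from -0.19 to 0.26 at baseline, from -0.37 to 0.22 after sham surgery and from -0.63 to 0.37 after MI. The intervals leave room for moderate differences: that of Pygl at baseline ran from -0.76 to 0.72, and that of Gbe1 after MI from -0.35 to 0.22.

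**Figure D4:**
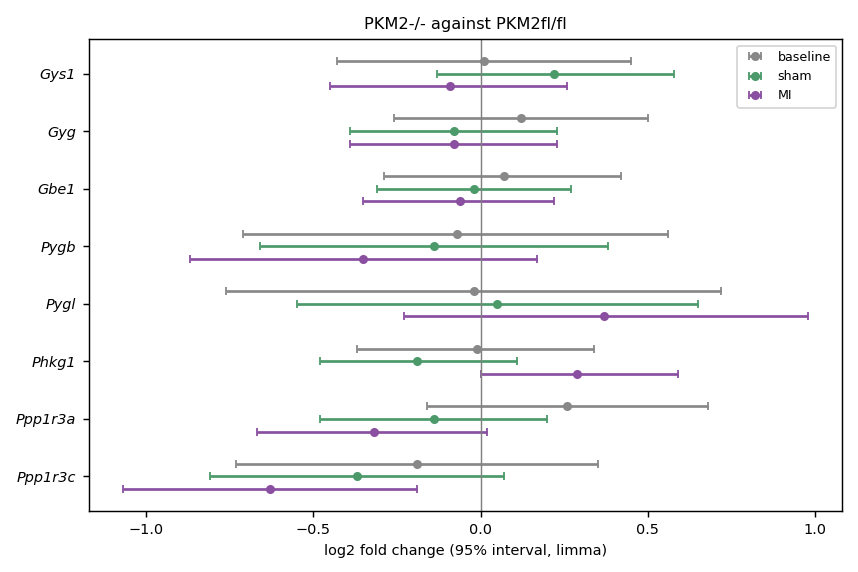
Log2 difference of 8 glycogen genes between PKM2-/- and PKM2fl/fl hearts at baseline (2 against 2), after sham surgery and after MI (3 against 3 each), with 95% intervals from limma. The interval of Ppp1r3c after MI, -1.07 to -0.19, is the farthest from 0, and no gene passed the adjusted threshold.

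Ppp1r3c differed most between genotypes after MI. Its values of 619, 775 and 819 in PKM2-/- hearts all lay below the 1356, 1285 and 840 of PKM2fl/fl hearts, as was so for 8.26% of all genes. The log2 difference was -0.63 (SE 0.21, 95% interval -1.07 to -0.19, limma adjusted p = 0.138), and DESeq2 gave -0.65 with an adjusted p of 0.0499. Without the third PKM2fl/fl MI library, 3 of the 8 passed, against 11.0% of all genes (2271 of 20576): Ppp1r3c at -0.85 (adjusted p = 0.0128), Pygb at -0.74 (adjusted p = 0.00676) and Pygl at 0.77 (adjusted p = 0.0365). With all libraries Pygb was at -0.35 (adjusted p = 0.494) and Pygl at 0.37 (adjusted p = 0.533). Between the remaining PKM2fl/fl MI hearts and the PKM2-/- MI hearts the cardiomyocyte marker sum also differed, at 302357 and 328430 against 146232 to 209831, and its part in these differences was not tested.

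Phkg1 was the other gene with an unadjusted p under 0.05 after MI, at 0.29 (SE 0.14, limma adjusted p = 0.292). After sham surgery its values of 4865, 4944 and 4925 in PKM2-/- hearts were below the 5747, 5809 and 5233 of PKM2fl/fl hearts, as was so for 8.28% of all genes, with a log2 difference of -0.19 (adjusted p = 0.738). At baseline Gyg (2649 and 2538 against 2362 and 2402) and Ppp1r3a (7103 and 6595 against 5413 and 6057) were higher in both PKM2-/- hearts, as were 17.7% of all genes, and Ppp1r3c was lower (1796 and 1816 against 1967 and 2160), as were 17.2%. None of the 20 further glycogen genes passed in any of the 3 genotype contrasts.

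Whether the MI change itself differed between genotypes was tested as an interaction. With limma 0 of the 8 genes passed, as did 0.0% of all genes; at an unadjusted p under 0.05 the counts were 1 of the 8 and 1703 of 20576 (8.28%). Over all genes DESeq2 called 60, edgeR 0 and edgeR without a count filter 538, with 0 of the 8 among them each time. Phkg1 had the lowest p, with a fall 0.48 smaller in PKM2-/- hearts (SE 0.19, 95% interval 0.07 to 0.89, adjusted p = 0.549). For the other 7 the differences ran from -0.32 (Gys1) to 0.32 (Pygl), and the interval for Pygl, -0.53 to 1.17, was the widest.

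Sham surgery was compared with no surgery. None of the 8 genes passed with limma in either genotype, where 0.19% and 5.14% of all genes did. In each genotype 1 of 8 had an unadjusted p under 0.05, against 8.81% and 18.9% of all genes. The filtered fit of edgeR passed 0 of the 8, and called 26 and 739 of 23161 genes. Pygl was at 92.6 and 100 at baseline against 180, 179 and 112 after sham surgery in PKM2fl/fl hearts, and at 112 and 80.6 against 151, 179 and 148 in PKM2-/- hearts. Both genotypes' sham hearts lay above their baseline hearts, as did 17.4% and 18.4% of all genes, with log2 differences of 0.66 (SE 0.32, adjusted p = 0.572) and 0.73 (SE 0.32, adjusted p = 0.216). Ppp1r3c likewise had 1967 and 2160 against 4390, 3305 and 2407, and 1796 and 1816 against 2211, 2412 and 3048, with differences of 0.67 (SE 0.23, adjusted p = 0.332) and 0.49 (SE 0.23, adjusted p = 0.274). These contrasts share the sham hearts with the MI contrasts. Of the 20 further genes 2 passed, both in PKM2-/- hearts: Ppp1r3b was higher by 0.64 (adjusted p = 0.0431) and Ppp1r3d lower, at -0.75 (adjusted p = 0.0458).

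Pygm (chr19:6384408-6398464) codes for the muscle isoform of phosphorylase. It was listed at 14.1 and 6.63 in PKM2fl/fl baseline, 13.5, 15.4 and 12.3 in sham and 0, 0 and 1.83 in MI hearts. In PKM2-/- hearts it was listed at 4.66 and 0, then 12.9, 13.1 and 12.9, then 1.62, 1.91 and 5.77. Sham hearts were above MI hearts in both genotypes, but the values cannot be read as the level of the transcript, because the genes around it were also listed near 0. From Majin to Slc22a12 (chr19:6184345-6543070), 13 consecutive protein-coding genes had means of 0 to 14.1, among them Sf1, a splicing factor that cells in general use, at 0 to 8.23 in 15 libraries and 44.0 in the other. The genes on either side were at 105 (Batf2) and 493 (Rps6ka4). Whether this reflects the counting, the annotation or the alignment was not tested.

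**Figure D5:**
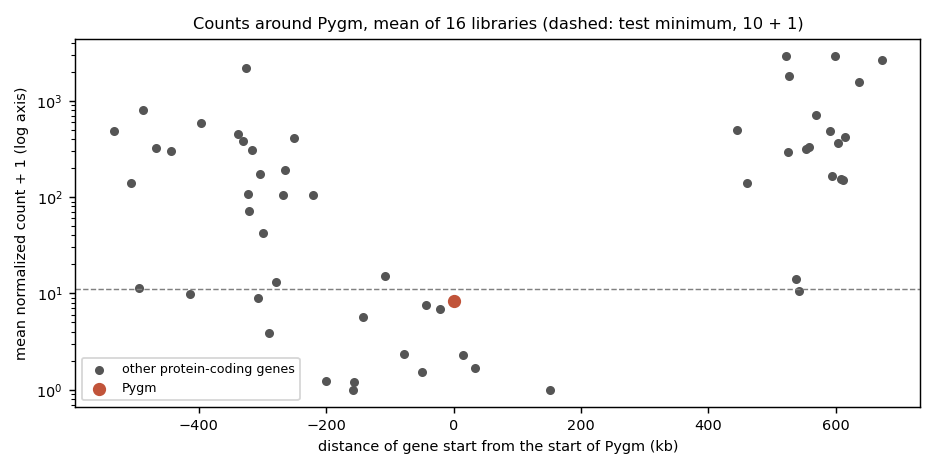
Mean normalized count over 16 libraries, plus 1, on a log axis, for protein-coding genes by the distance of their start from that of Pygm in kb. The 13 genes from Majin to Slc22a12, Pygm included, lie at or below a mean of 14.1, and the genes that flank them at 105 and 493.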

How the data were processed

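The data were paired-end RNA-seq libraries of 16 mouse left ventricles (6 groups of genotype and treatment, taken from the labels), made after depletion of ribosomal RNA. Per the study's methods the authors used PRINSEQ for trimming, HISAT2 for alignment (mm10) and featureCounts for reads per gene; versions, the gene annotation and the strand setting are not given in the sources used here. The authors deposited a signal per gene and library: the read count divided by a DESeq2 size factor. They also deposited log2 fold changes, a test score and p-values of 1 comparison of their own, which were not used. Dividing each column by its smallest value above 0 gave whole reads for 100% of values (tolerance 0.01), and these reads served the count-based alternatives and the depth per library. Counting error was small for most of the 9 genes (568 reads or more in every library), larger for Pygl (44 or more), and Pygm was at 0 in some libraries.

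Genes with a mean of 10 or more (20576 of 55492) were fitted with limma 3.58.1 in R 4.3.3 (trend, on log2(value + 1), 1 mean for each of 6 groups over all libraries), with Benjamini-Hochberg adjustment over all tested genes and a threshold of 0.05; a second rule added a 2-fold change. Alternatives were DESeq2 1.42.0, edgeR 4.0.16 and limma-voom on the reads, other scalings, filters and pseudocounts (0.1), a replicate block, and each library left out. The members, gene lists and tests were chosen with earlier results of these data known. Lengths were those of the canonical transcripts of GENCODE M39 (GRCm39); coordinates and promoters are those of RefSeq GRCm38.p6, in which all 9 genes matched by symbol. Genes named were the 9, the other glycogen genes that passed, and the 2 genes most alike each tested one; genes named for their position or strand overlap were chosen after their values were seen. Some items that these rules would name are not reported here; they remain in the counts.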

Additional observations from a re-analysis of the deposited data

How the results depend on the processing

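Depth, replicate number and cell mixture limit these results: 2 or 3 hearts stood in each group, the cardiomyocyte marker sum fell with MI in both genotypes, and size factors decide where 0 lies. Scaled to cardiomyocyte markers (median of all genes 1.68 and 2.12 above sham), the MI changes in PKM2fl/fl and PKM2-/- hearts turned positive: Gys1 0.85 and 0.96, Gyg 1.35 and 1.78, Gbe1 1.25 and 1.63, Pygb 0.32 and 0.54, Phkg1 0.17 and 1.08, Ppp1r3a 0.30 and 0.55, Ppp1r3c 0.18 and 0.34. With that scaling 4 glycogen genes passed in PKM2fl/fl hearts and 6 in PKM2-/- hearts, all higher. Over all genes 17402 and 18422 of 20576 passed. Scaled to total counts (medians -0.18 and 0.52), Gbe1 in PKM2-/- hearts was at 0.02 and 4 genes passed there, with Gys1 and Phkg1 lost. Over all 20576 tested genes 9097 passed there, and 5996 in PKM2fl/fl hearts. The Gys1 and Phkg1 changes relative to the median gene were -1.18 and -1.05. Rescaling moves all genes almost alike, so values relative to the median gene in this paragraph are not a separate check. In PKM2fl/fl hearts the Gbe1 call was lost under total count scaling with and without ribosomal loci, and when the fit held the compared groups only (adjusted p 0.0592 to 0.0978), with the change relative to the median gene at -0.45 under both scalings. In PKM2-/- hearts it was lost under total counts without ribosomal loci (-0.15, adjusted p = 0.421; relative to the median gene -0.50). Across the other tools, filters and scalings with all libraries, 6 to 9 of the genes passed after MI in PKM2fl/fl and 6 to 8 in PKM2-/- hearts. The counts above 7 include Pygm, which was not tested in the reported fit, and that of 9 also Gyg. Apart from total count scaling, these settings called 9230 to 11108 genes in PKM2fl/fl and 11107 to 12058 in PKM2-/- hearts. Between 20576 and 40116 genes were tested in them. Leaving out 1 library gave 6 to 8 in PKM2fl/fl and 7 to 8 in PKM2-/- hearts, and calls over all genes in those fits are not given here.

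For PKM2-/- against PKM2fl/fl hearts after MI, 1 gene (Ppp1r3c) passed with DESeq2 and 1 with edgeR without a count filter (adjusted p = 0.000329). Over all genes DESeq2 called 1029 of 18768 there and edgeR without a count filter 1710 of 40116. Leaving out 1 library gave 0 to 3 of the glycogen genes. For sham against baseline, edgeR without a filter passed 2 genes in each genotype (Pygl and Ppp1r3c). Over all 40116 genes it called 930 in PKM2fl/fl and 1914 in PKM2-/- hearts. Every other alternative run passed 0 of the glycogen genes, as did all alternatives for the genotype contrasts at baseline and after sham surgery and for the interaction. Tested within PKM2fl/fl or PKM2-/- hearts alone, where 3 against 3 cannot pass, the share changes were 13.09 and 16.92 points for Pygl, -12.98 and -16.87 for Pygb and -0.1112 and -0.05125 for Pygm (exact permutation tests, adjusted p 0.1 to 0.4). Leaving Pygm out of the sum or using the exon union as length, both chosen after seeing the data, kept direction and side of the threshold for Pygb and Pygl. Same-numbered libraries did not deviate together (correlations of -0.196 to 0.126). Deviations from the means of 2 or 3 libraries cannot settle whether the numbers pair anything. With a replicate block 7 genes passed after MI in each genotype and 0 in the other contrasts. Over 1728 single-gene values under an alternative, 1600 kept direction and side of the threshold, 19 passed newly, 8 no longer passed, 15 reversed as above and 86 changed sign where neither value passed.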

Other observations

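The tested genes whose profile over the 16 libraries was most like that of each glycogen gene (Pearson r of log2(value + 1), a description in which all points share the MI contrast and the library scaling) are given here by name. For Pygb it was Mylk3, the cardiac myosin light chain kinase (r = 0.994). For Ppp1r3a they were Asb11 (r = 0.992) and Pdk1, a kinase that inhibits pyruvate dehydrogenase (r = 0.991). For Gys1 they were Mrs2, a mitochondrial magnesium channel (r = 0.985), and Gm29253 (r = 0.983), and for Phkg1 Chchd2 (r = 0.999) and Atp5g3, a subunit of ATP synthase (r = 0.993). Pygl was most like Cacna1d, a calcium channel, and Far1, which makes fatty alcohols (r = 0.989 each). The weaker matches were Ivns1abp and Gm10138 for Ppp1r3c (r = 0.97 each), Adipor1 and Gsto1 for Gyg (r = 0.929 and 0.925) and Fra10ac1 and Abcg2 for Gbe1 (r = 0.908 and 0.904).

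Pgm1, a phosphoglucomutase, and Ppp1ca, a catalytic subunit of protein phosphatase 1, were listed near 0 as Pygm was. Pgm1 was at 0 to 10.3 normalized counts in all 16 libraries. Ppp1ca was at 0 to 3.22 in 14 libraries, and at 287.7 in the second PKM2-/- baseline library and 237.7 in the second PKM2-/- sham library. Of the 10 protein-coding genes nearest to each, 5 around Pgm1, 8 around Ppp1ca and 7 around Pygm had a mean under 10, against 0 to 4 around the other 8 glycogen genes.

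Besides Phkg1, 2 of the glycogen genes share exon bases with a gene on the opposite strand in GENCODE M39: Gys1 shares 420 with Ruvbl2 (mean 645 normalized counts) and Gyg shares 155 with Hltf (mean 790). The strand setting of the counting is not given in the sources used here, so reads of these stretches cannot be assigned.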
